A study of Mus musculus with 17 samples.

Results

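Integrins are receptors of the cell surface, each built of an alpha chain and a beta chain, that hold cells to the matrix or to other cells and pass signals in both directions through the membrane. The beta2 integrins LFA-1 and Mac-1 are leukocyte receptors for ICAM-1, the alpha4 and alpha9 chains pair with beta1 to bind VCAM-1, and alpha6 and alphaV partners bind laminin, vitronectin and related matrix proteins. Kupffer cells (KCs) are the resident macrophages of the liver and lie in its sinusoids, attached to the endothelium. The 10 genes described here, Itga4, Itga6, Itga9, Itgal, Itgam, Itgav, Itgb1, Itgb2, Icam1 and Vcam1, were chosen by symbol. Each was found once in each of the 3 deposited tables, which list 25124 genes each.

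RNA from KCs sorted from mouse liver was sequenced in 17 samples. TIM4+CD206+ KCs came from 3 tumour-free and 3 tumour-bearing samples, and TIM4+CD206high KCs likewise from 3 and 3. Another table held KCs of 3 Id3f/f and 2 Clec4fCreId3f/f samples, for which the labels name no CD206 gate and no tumour. The tumour comparisons ask what differs in each KC subset when a tumour grows in the liver, and the remaining one asks what differs in KCs that lack ID3, a nuclear protein that binds E proteins and keeps them off DNA. Tumour-bearing mice had KPC cells, from a mouse pancreatic cancer model, injected into the portal vein 2 weeks earlier, and the other mice were untreated. The cre is driven by Clec4f, a gene of KCs, so the deletion is limited to cells that express it, and the controls carry the same floxed Id3 alleles without the cre. By the study's methods, sorted KCs were positive for CD45, F4/80 and TIM4, with a CD206 gate for the CD206+ and CD206high subsets only, and negative for Hoechst and for lineage markers that include CD3, NKP46 and Ly6G. The labels give no age, strain or sex. Sex-linked genes, given below, split the Id3f/f from the Clec4fCreId3f/f samples, so a change with Id3 deletion cannot be told from one with sex. The study describes the Id3f/f and Clec4fCreId3f/f samples as littermate mice. In the CD206+ and CD206high tables the labels do not tie replicates to single animals, so p there measures the spread between these samples.

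Values are the deposited ones, on a log2 scale on which a step of 1 is a doubling. They behave like a regularized log2 transformation, which draws samples together where a gene has few reads, so differences of weakly expressed genes are understated. Each table was transformed separately, so values of different tables stand side by side and no test was made across them. Depth per sample cannot be read from the values. A gene was tested when at least 3 samples (in the Id3 comparison 2) reached a value equal to 10 counts, and each of the 10 genes passed everywhere. A gene is said to have risen or fallen when limma, a linear model fitted over all genes tested, gave it an adjusted p under 0.05.

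The KC label was checked against 15 markers, all of which passed the filter in each table. Clec4f was at 19.65, 19.18 and 19.02 in tumour-free CD206+ samples, at 18.21, 18.20 and 18.45 in tumour-free CD206high samples, and at 17.59, 17.62 and 17.71 in Id3f/f samples. Timd4, the gene of TIM4, lay between 13.76 and 15.25 in all 17 samples. Per kilobase of transcript the most abundant of the markers was C1qb, a complement gene of macrophages, in each table. Mrc1, the gene of CD206, lay between 12.37 and 13.18 in the CD206+ table, between 14.96 and 16.19 in the CD206high table and between 12.80 and 13.27 in the Id3 table. These KC genes were high in every library. Endothelial genes were high in CD206high samples as well. The log2 of the summed linear values of 12 endothelial markers was 18.41, 17.74 and 18.31 in tumour-free CD206high samples. In tumour-free CD206+ samples it was 15.05, 14.13 and 14.80. The part of endothelial RNA in the integrin values was not tested.

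Some libraries stood apart from the others of their group. In CD206+ KCs, 11.7% of the 13233 genes tested lay more than 1 log2 unit from the mean of the rest of the group in tumour-free replicate 2, against 6.45% and 2.92% in replicates 1 and 3. In CD206high KCs the shares were 3.53%, 15.6% and 18.3% in tumour-free replicates 1 to 3, and at most 0.611% in tumour-bearing ones. Tumour-free replicate 2 of CD206high KCs also had the highest summed level of 12 stellate cell markers, at 14.52 against 13.65 and 13.04, and of 7 platelet markers, at 13.16 against 11.44 and 11.01. A summed level is the log2 of the sum of a list's values on the linear scale. In the Id3 table no sample exceeded 0.171%, that of Id3f/f replicate 3.

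Genes of other cells differed between tumour-free and tumour-bearing samples. Of 11 epithelial genes tested, a list that marks the carcinoma cells, all 11 rose in each subset, with a median log2 difference of 3.85 in CD206+ and 4.83 in CD206high KCs. Their summed level was 11.30, 10.92 and 11.87 in tumour-free CD206+ samples and 15.59, 15.39 and 15.38 in tumour-bearing ones. In CD206high KCs it was 11.16, 11.42 and 11.01 without tumour and 15.87, 15.90 and 15.79 with it, and Krt8, a keratin, was the most abundant per kilobase in each. Every tumour-bearing sample thus held far more epithelial RNA than every tumour-free one. The largest log2 differences were those of Tff1, Gkn1, Krt19, Lgals4, Krt7, Krt8, Muc1 and Krt18 in CD206+ KCs (5.72 to 3.16) and of Gkn1, Tff1, Krt7, Krt19, Epcam, Krt8, Muc1 and Lgals4 in CD206high KCs (6.21 to 4.58). Cldn4 was under the filter in both subsets. The epithelial list was chosen with earlier results of these data known, so its count of calls is no independent check.

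Monocyte and neutrophil genes were also higher with tumour. Of 10 monocyte markers 5 rose and 0 fell in each subset, with medians of 1.79 and 1.04. Their summed level was 14.95, 13.73 and 14.66 without and 15.44, 15.32 and 15.36 with tumour in CD206+ KCs, and 14.37, 14.15 and 14.58 against 15.24, 15.13 and 15.14 in CD206high KCs. Of 12 neutrophil markers 5 rose and 0 fell in each subset, with medians of 1.85 and 1.97. Their summed level was 13.48, 12.96 and 13.88 against 15.18, 15.09 and 15.09 in CD206+ KCs, and 12.71, 12.07 and 13.36 against 14.69, 14.54 and 14.05 in CD206high KCs. No tumour-bearing sample overlapped the tumour-free ones of its subset in either list. The monocyte genes that rose were Chil3, Ccr2, Cx3cr1 and S100a4 in both, with F13a1 in CD206+ and Vcan in CD206high KCs. Among neutrophil genes they were S100a8, S100a9, Cxcr2 and Mmp8 in both, with Retnlg in CD206+ and Ly6g in CD206high KCs. Plac8 was the most abundant monocyte gene per kilobase and S100a9 the most abundant neutrophil gene in each subset. The neutrophil gene Ly6g, whose protein the sort gates against, was low, at 3.51 to 4.69 without and 5.47 to 5.94 with tumour in CD206high KCs, where it rose. In CD206high KCs the calls of Ly6g, S100a8, S100a9 and Mmp8 were lost without tumour-free replicate 1 (adjusted p = 0.0887, 0.123, 0.158 and 0.0570) or any 1 tumour-bearing sample (up to 0.118, 0.159, 0.183 and 0.112). Ly6g was also lost after quantile normalization (0.0607), and S100a9 with no filter (0.0583) or the stricter one (0.0592). Chil3 and S100a4 were lost there without any 1 tumour-bearing sample (up to 0.0849 and 0.1001), and Ccr2 without tumour-bearing replicate 1 (0.0993) or 2 (0.0972). In CD206+ KCs the call of Retnlg was lost without tumour-free replicate 1 (0.0676) or any 1 tumour-bearing sample (up to 0.0899), that of Mmp8 without tumour-bearing replicate 2 (0.0587) or 3 (0.0564), and that of Ccr2 without replicate 1 (0.05002). In bulk RNA, a change in the number of cells of a type and a change in RNA per cell cannot be told apart. The part of these cells in the integrin values below was not tested.

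Other marker lists moved less or downward. Of 12 hepatocyte genes 7 fell in each subset, with medians of -1.33 and -1.50, and 1, Hnf4a, rose in CD206high KCs. Among them, Alb, Cyp2e1, Serpina1a and Ttr fell in both, Pck1 and Apoa1 in CD206+ and Cps1 and Ass1 in CD206high KCs, and Apoa1 and Alb were the most abundant per kilobase in the 2 subsets. Calls of Cyp2e1 and Serpina1a were lost in CD206+ KCs, as was that of Ttr, without any 1 library other than tumour-free replicate 2 (adjusted p up to 0.129, 0.0731 and 0.156), and that of Ttr also with no filter (0.0630), no trend (0.0528) or quantile normalization (0.0559). In CD206high KCs those of Cyp2e1 and Serpina1a were lost without tumour-free replicate 1 or any 1 tumour-bearing sample (up to 0.128 and 0.0991), that of Cps1 without any 1 tumour-bearing sample (up to 0.0888) and that of Alb without tumour-bearing replicate 2 (0.0509). Of the B cell markers 3 of 4 tested fell in CD206+ KCs and 2 of 6 in CD206high KCs, with medians of -1.05 and -0.78 (among them Cd79a and Cd79b in both, the latter the most abundant). Cd79b was lost in CD206+ KCs without any 1 library other than tumour-free replicate 2 (adjusted p up to 0.121), and Cd79a and Cd79b in CD206high KCs without any 1 tumour-bearing sample (up to 0.104 and 0.167), with Cd79b lost there under the replicate block too (0.0642). Endothelial genes had medians of -0.80 and -0.84, and 4 of 12 fell in CD206high KCs, namely Clec4g, Oit3, Dnase1l3 and Tek. Their summed level in that subset was 18.41, 17.74 and 18.31 without and 17.07, 17.29 and 17.41 with tumour, with Clec4g the most abundant per kilobase. All 4 calls were lost without tumour-free replicate 1 or any 1 tumour-bearing sample, with adjusted p for Clec4g of 0.0895 without tumour-free replicate 1. Tek held in 3 of 13 other settings, and was also lost without tumour-free replicate 3 (0.0717), with no filter (0.0645), with the stricter one (0.0644), with no trend (0.0574), with the robust fit (0.05003) and with the replicate block (0.0558), as was Clec4g with the block (0.0859). Stellate markers had medians of -0.15 and -0.40, and 3 of 12 fell in CD206high KCs (Colec11, Lrat and Dcn), while Ecm1 was the most abundant per kilobase in each. Colec11 and Lrat were lost without tumour-free replicate 1 (0.0694 and 0.0744) or tumour-bearing replicate 1 (0.142 and 0.0960) or 2 (0.126 and 0.0960), and Colec11 without tumour-bearing replicate 3 (0.0671) and with the replicate block (0.0514). None of the dendritic cell, T and NK cell or platelet markers passed the test in limma in either subset, with medians of 0.14, -0.52 and 0.33 in CD206+ and 0.04, -0.71 and 0.17 in CD206high KCs. The most abundant of these per kilobase were Batf3 in the dendritic cell list and Pf4 in the platelet list of both, and Nkg7 and Klrk1 in the T and NK cell list. Of 10 T and NK cell genes, 10 lay lower with tumour in CD206+ and 9 in CD206high KCs. Their summed level was 12.91, 12.27 and 12.72 without and 11.97, 12.01 and 12.13 with tumour in CD206+ KCs. It was 12.56, 12.40 and 12.99 against 11.78, 11.79 and 11.96 in CD206high KCs, without overlap in either subset. KC markers themselves had medians of -0.38 and -0.30, and Adgre1 and Timd4 fell in CD206+ KCs, by log2 differences of -0.93 and -0.75. Leaving out any 1 library other than tumour-free replicate 2 ended these calls of Adgre1 and Timd4, with adjusted p up to 0.139 and 0.190, and neither was called after median centring (0.0636 and 0.0885) or with no trend (0.05003 and 0.0829), nor Timd4 with no filter (0.0678). The summed level of the KC markers was 21.81, 21.31 and 21.50 without and 21.10, 20.9976 and 21.09 with tumour in CD206+ KCs. It was 20.46, 20.49 and 20.81 against 20.39, 20.24 and 20.30 in CD206high KCs, so every tumour-bearing sample lay below every tumour-free one of its subset.

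All genes together give the background for these counts. With tumour, 469 of 13233 genes (3.54%) had an adjusted p under 0.05 in CD206+ KCs, 337 (2.55%) higher and 132 (0.998%) lower. With same-numbered replicates as a block the count was 1026, among them 4 of the 10 genes described here (Itga6, Itgal, Itgam and Icam1). In CD206high KCs the count was 1053 of 14561 (7.23%), 758 (5.21%) higher and 295 (2.03%) lower. Quantile normalization moved the higher share of the calls in CD206high KCs from 72% to 57.4%. With Id3 deletion it was 827 of 12833 (6.44%), 395 (3.08%) higher and 432 (3.37%) lower, and median centring moved the higher share from 47.8% to 37.4%. Of the 10 genes described here, limma called 0 in CD206+ and 0 in CD206high KCs with tumour, and 3 with Id3 deletion, all 3 higher. At an unadjusted p under 0.05 the counts were 4, 3 and 6, against 17.2%, 21.1% and 23.6% of all genes tested, and both the fit without a mean-variance trend and the robust fit also called 0 and 0 with tumour. Groups without any overlap were seen for 4 of these 10 genes in CD206+ KCs (background 23.4%), 3 in CD206high KCs (30.7%) and 8 in the Id3 table (41.9%). Their median log2 difference was -0.07, 0.09 and 0.26, against 0.02, 0.03 and 0.00 over all genes tested. In the scaling alternatives, quantile normalization moved the median of all genes in CD206high KCs by -0.13 and median centring by -0.16.

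**Figure D1:**
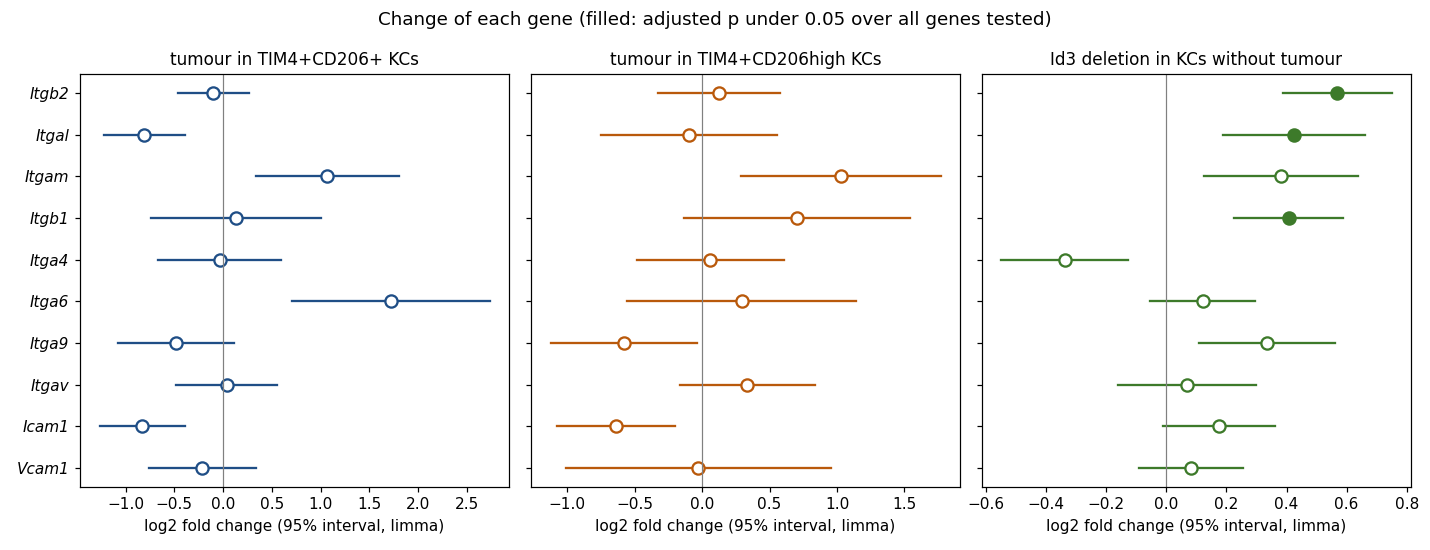
Log2 difference of each gene with its 95% interval from limma, in the tumour comparison of each KC subset (tumour minus tumour-free) and in the Id3 comparison (Clec4fCreId3f/f minus Id3f/f). Filled points have an adjusted p under 0.05, which only Itgb2, Itgal and Itgb1 reach, with differences of 0.57, 0.43 and 0.41 in the Id3 comparison.

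Levels of different genes were compared per kilobase of the longest coding transcript. In tumour-free CD206+ KCs the order was Itgb2 (13.06), Icam1 (12.69), Vcam1 (12.47), Itgal (12.25), Itgb1 (9.76), Itgam (8.54), Itga9 (8.23), Itga4 (6.20), Itgav (5.96) and Itga6 (4.20). The ranges of neighbours overlapped from Itgb2 to Itgal, from Itgb1 to Itga9, and between Itga4 and Itgav, so only the steps below Itgal, Itga9 and Itgav exceeded the spread. In tumour-free CD206high KCs it was Vcam1 (13.36), Itgb2 (12.79), Icam1 (12.26), Itgb1 (11.71), Itgal (11.60), Itgam (9.91), Itga9 (9.29), Itga4 (7.99), Itga6 (7.94) and Itgav (7.33). There neighbours overlapped except between Itgb2 and Icam1, Itgal and Itgam, and Itga9 and Itga4. Id3f/f samples had the order Vcam1 (13.11), Itgb2 (11.41), Icam1 (11.26), Itgb1 (10.85), Itgal (10.01), Itga9 (8.80), Itgav (7.25), Itgam (6.84), Itga4 (6.48) and Itga6 (4.13), with no overlap between neighbours. Itgb2, Vcam1, Icam1, Itgal and Itgb1 made up the upper positions in all 3 tables, and the alpha chains other than Itgal the lower ones.

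The order in tumour-bearing CD206+ KCs was Itgb2 (12.96), Vcam1 (12.26), Icam1 (11.86), Itgal (11.44), Itgb1 (9.89), Itgam (9.61), Itga9 (7.75), Itga4 (6.16), Itgav (5.99) and Itga6 (5.91). Overlaps remained between Itgb1 and Itgam and from Itga4 to Itga6. Tumour-bearing CD206high KCs had Vcam1 (13.33), Itgb2 (12.92), Itgb1 (12.41), Icam1 (11.63), Itgal (11.50), Itgam (10.93), Itga9 (8.71), Itga6 (8.23), Itga4 (8.05) and Itgav (7.67), with overlap between Icam1 and Itgal and between Itga6 and Itga4. Clec4fCreId3f/f samples kept the order of the Id3f/f samples, from Vcam1 (13.20) and Itgb2 (11.98) through Icam1 (11.44), Itgb1 (11.26), Itgal (10.43), Itga9 (9.13), Itgav (7.32), Itgam (7.22) and Itga4 (6.14) to Itga6 (4.25), with no overlap between neighbours.

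**Figure D2:**
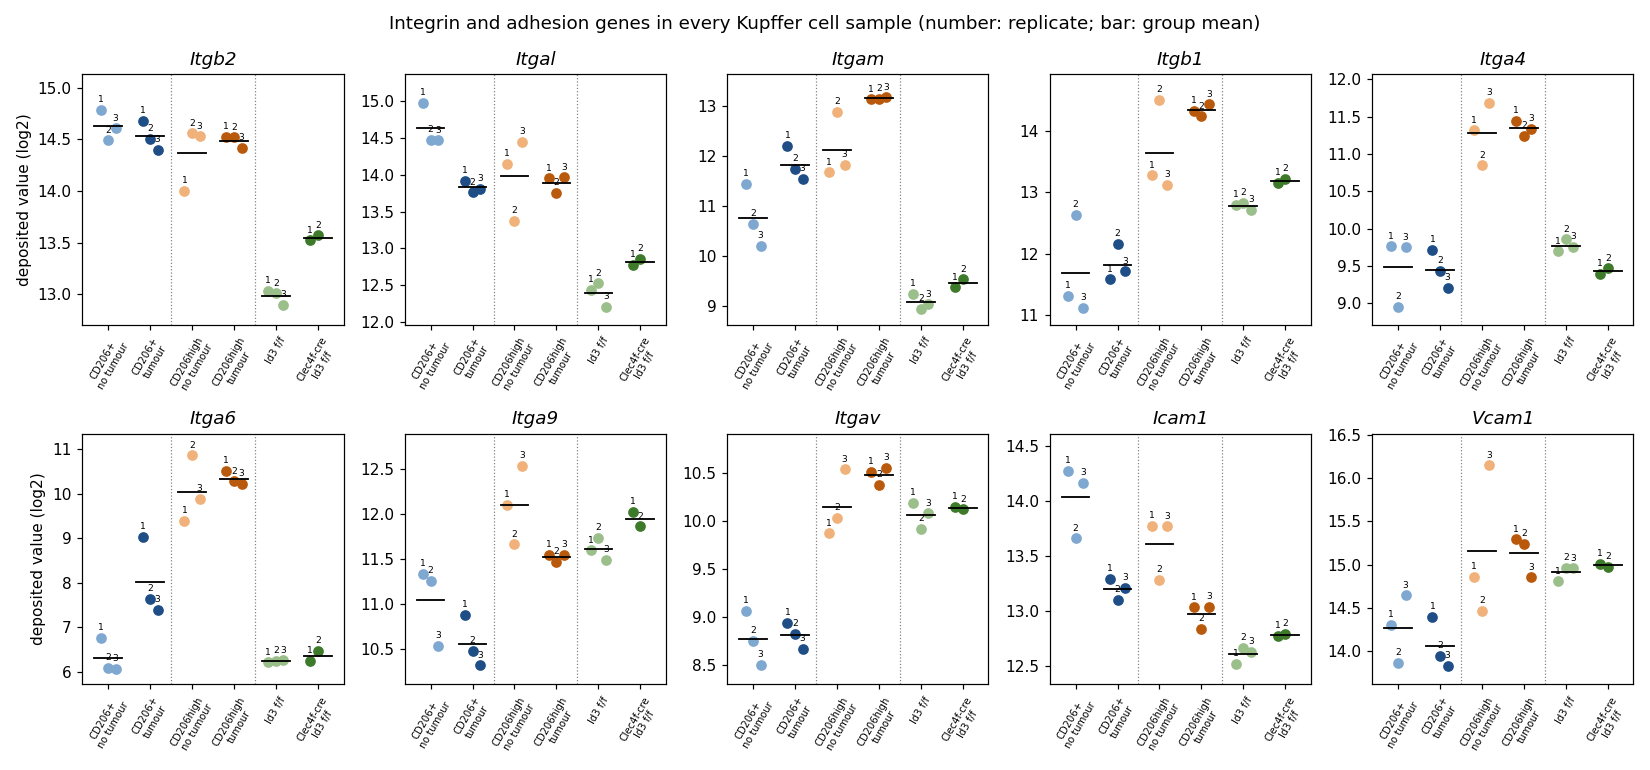
Deposited log2 value of each gene in each of the 17 samples, numbered by replicate, with bars at group means and dotted lines between the separately transformed tables. Both Clec4fCreId3f/f samples lie above all Id3f/f samples for Itgb2 (13.52 and 13.57 against at most 13.03), and Itga6 in CD206+ KCs lies at 6.06 to 6.76 without and 7.40 to 9.03 with tumour.

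Among the beta2 integrins, Itgb2, which encodes the beta chain shared by LFA-1, Mac-1 and their relatives (CD18), rose with Id3 deletion. Its values were 13.03, 13.01 and 12.90 in Id3f/f samples and 13.52 and 13.57 in Clec4fCreId3f/f samples. Both samples with the cre lay above all 3 controls. The log2 difference was 0.57 (SE 0.08, 95% interval 0.39 to 0.75, 1.48-fold, adjusted p = 0.00618). The call held in 10 of 12 other settings and was lost when 1 Clec4fCreId3f/f sample was left out, with an adjusted p of 0.152 without replicate 1 and 0.156 without replicate 2. Those fits assume that the lone sample varies like the controls. Sex-linked genes split this comparison by genotype, so sex and genotype cannot be told apart for Itgb2 or any other gene of it.

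With tumour, Itgb2 stayed within the spread of its groups. It was at 14.79, 14.49 and 14.61 in tumour-free and 14.68, 14.50 and 14.40 in tumour-bearing CD206+ samples, and the groups overlapped. In CD206high KCs, Itgb2 was at 14.00, 14.56 and 14.53 without and 14.53, 14.52 and 14.42 with tumour, with the low value in tumour-free replicate 1. Log2 differences were -0.10 (95% interval -0.46 to 0.26) and 0.12 (-0.33 to 0.58), and over all settings the first ran from -0.18 to -0.02. The second was -0.04 after median centring and -0.06 without tumour-free replicate 1, and ran up to 0.26.

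Itgal encodes the alpha chain of LFA-1 (CD11a). In the Id3 table its values were 12.44, 12.53 and 12.21 in controls and 12.78 and 12.86 with the cre. The groups did not overlap, and Itgal rose with Id3 deletion by a log2 difference of 0.43 (SE 0.11, 95% interval 0.19 to 0.66, 1.34-fold, adjusted p = 0.0443). This call was the least steady of the 3, since it held in 5 of 12 other settings. It was lost with no filter on low values (adjusted p = 0.0736), without the mean-variance trend (0.0709), after median centring (0.0530), and without Id3f/f replicate 1 (0.107), Id3f/f replicate 2 (0.0560), Clec4fCreId3f/f replicate 1 (0.315) or Clec4fCreId3f/f replicate 2 (0.309).

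In CD206+ KCs, Itgal was at 14.97, 14.47 and 14.46 without tumour and at 13.91, 13.76 and 13.81 with it. All 3 tumour-bearing samples lay below all 3 tumour-free ones. The log2 difference of -0.81 (SE 0.18, 95% interval -1.22 to -0.40) had an adjusted p of 0.0512, so it did not pass the test. With same-numbered replicates as a block the adjusted p was 0.0149, after quantile normalization 0.0308 and without tumour-free replicate 2 it was 0.0158, in a range of 0.0149 to 0.189 over all settings. In CD206high KCs, Itgal was at 14.15, 13.38 and 14.44 against 13.95, 13.75 and 13.96, and the tumour-bearing samples lay inside the tumour-free range. Its log2 difference there was -0.10 (95% interval -0.75 to 0.55), and it was 0.02 after quantile normalization and -0.40 and 0.13 when tumour-free replicate 2 or 3 was left out. Whether the subsets differ in this was not tested.

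Itgam encodes the alpha chain of Mac-1 (CD11b), which monocytes and neutrophils also carry. In CD206+ KCs its values were 11.44, 10.65 and 10.21 without and 12.21, 11.74 and 11.55 with tumour. In CD206high KCs they were 11.68, 12.89 and 11.83 against 13.14, 13.16 and 13.19. In each subset every tumour-bearing sample lay above every tumour-free one, and tumour-free replicate 2 of CD206high KCs was the nearest to the tumour-bearing samples. The log2 differences were 1.07 (SE 0.32, 95% interval 0.34 to 1.80, 2.10-fold) and 1.03 (SE 0.31, 95% interval 0.29 to 1.77, 2.04-fold), with adjusted p of 0.127 and 0.113, so neither passed the test.

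Some other settings called Itgam. In CD206+ KCs it passed without tumour-free replicate 1 (log2 difference 1.41, adjusted p = 0.0440) and with same-numbered replicates as a block (0.00344), and adjusted p ran from 0.00344 to 0.372 over all settings. Among CD206high KCs it was called without tumour-free replicate 2, with a log2 difference of 1.41 and an adjusted p of 0.00133, and adjusted p ran up to 0.331. The summed levels of the monocyte and neutrophil lists were higher in the same tumour-bearing samples, by the values given above. Id3 samples had Itgam at 9.25, 8.93 and 9.03 in controls and 9.37 and 9.53 with the cre. The groups did not overlap there, and the log2 difference of 0.38 (SE 0.11) had an adjusted p of 0.0809, in a range of 0.0152 to 0.454 over all settings.

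Itgb1 encodes the beta chain that pairs with most matrix-binding alpha chains (CD29). Its values in the Id3 table were 12.80, 12.83 and 12.71 in controls and 13.16 and 13.22 with the cre. The cre samples lay above all controls, and Itgb1 rose with Id3 deletion by a log2 difference of 0.41 (SE 0.08, 95% interval 0.23 to 0.59, 1.33-fold, adjusted p = 0.0219). The call held in 9 of 12 other settings and was lost without Id3f/f replicate 1 (adjusted p = 0.0683), Clec4fCreId3f/f replicate 1 (0.244) or Clec4fCreId3f/f replicate 2 (0.249).

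In CD206+ KCs, Itgb1 was at 11.31, 12.64 and 11.11 without tumour and at 11.58, 12.16 and 11.72 with it. CD206high KCs had it at 13.28, 14.51 and 13.12 against 14.33, 14.25 and 14.44. Tumour-free replicate 2 was the highest of all in each subset, and its removal changed the picture. With all samples the log2 differences were 0.13 (95% interval -0.74 to 1.00, adjusted p = 0.922) and 0.70 (-0.14 to 1.54, adjusted p = 0.309). Without tumour-free replicate 2 the difference was 0.61 in CD206+ KCs, which did not pass the test, and 1.14 in CD206high KCs with an adjusted p of 0.00351, in a range up to 0.596 over all settings. Leaving out tumour-free replicate 1 or 3 or tumour-bearing replicate 2 of CD206+ KCs gave -0.05, -0.16 and -0.04, so the direction there rested on single libraries.

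Itga4 encodes the alpha chain that forms VLA-4 with beta1 and binds VCAM-1 and fibronectin. It was at 9.69, 9.85 and 9.75 in Id3f/f samples and at 9.39 and 9.47 with the cre, the one gene of the 10 that lay lower in both cre samples than in all controls. The log2 difference was -0.34 (SE 0.09, 95% interval -0.55 to -0.13, adjusted p = 0.0639), which did not pass the test. It passed without Id3f/f replicate 3 (adjusted p = 0.0350) and after median centring (0.0483), and adjusted p ran from 0.0206 to 0.455 over all settings. With tumour, Itga4 was at 9.76, 8.95 and 9.75 against 9.71, 9.43 and 9.20 in CD206+ KCs. CD206high KCs had it at 11.32, 10.84 and 11.68 against 11.44, 11.24 and 11.34. The groups overlapped in both subsets, with tumour-free replicate 2 the lowest in each. The log2 differences were -0.04 and 0.06, and the direction of each flipped in some settings, in CD206high KCs to -0.10 after median centring. Over all settings they ran from -0.31 to 0.10 and from -0.16 to 0.26.

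Itga6 encodes a laminin-binding chain (CD49f). In CD206+ KCs its values were 6.76, 6.09 and 6.06 without and 9.03, 7.64 and 7.40 with tumour. All tumour-bearing samples lay above all tumour-free ones, with replicate 1 the highest in each group. The log2 difference of 1.72 (SE 0.44, 95% interval 0.70 to 2.73, 3.29-fold) was the largest of the 10 genes and had an adjusted p of 0.0818. It passed the test with same-numbered replicates as a block (adjusted p = 0.00313) and in no other of the 13 settings, where adjusted p ran up to 0.235. Summed epithelial levels were higher in the same tumour-bearing samples, and epithelial cells carry this chain too. In CD206high KCs, Itga6 was at 9.39, 10.86 and 9.89 against 10.52, 10.28 and 10.23, with tumour-free replicate 2 the highest and the groups overlapping. The log2 difference was 0.29 (95% interval -0.55 to 1.14), and -0.03 when tumour-free replicate 1 was left out and 0.70 when replicate 2 was (adjusted p = 0.0513). In Id3f/f controls Itga6 was at 6.21, 6.24 and 6.25 and in the cre samples at 6.25 and 6.47, a log2 difference of 0.12 that was 0.23 without Clec4fCreId3f/f replicate 1 and 0.01 without replicate 2.

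Itga9 encodes a chain that pairs with beta1 and binds VCAM-1, tenascin and osteopontin. With tumour it was at 11.34, 11.25 and 10.53 against 10.88, 10.48 and 10.32 in CD206+ KCs, where the groups overlapped. CD206high KCs had it at 12.10, 11.66 and 12.53 against 11.55, 11.47 and 11.54, and all tumour-bearing samples lay below all tumour-free ones. Log2 differences were -0.48 (95% interval -1.08 to 0.11, adjusted p = 0.402) and -0.58 (-1.12 to -0.04, adjusted p = 0.215). The summed endothelial level was lower in the same tumour-bearing CD206high samples, and its part in the Itga9 values was not tested. In CD206+ KCs the difference of Itga9 was -0.74 when tumour-free replicate 3 was left out and -0.34 when replicate 1 was. Without tumour-free replicate 2 of CD206high KCs the difference was -0.80 with an adjusted p of 0.0188, in a range up to 0.510. Id3 samples had Itga9 at 11.60, 11.74 and 11.49 in controls and 12.02 and 11.86 with the cre. These groups did not overlap, and the log2 difference of 0.33 (SE 0.10) had an adjusted p of 0.0820, in a range of 0.0483 to 0.544 over all settings.

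Itgav encodes the alphaV chain of vitronectin and osteopontin receptors, which also activate latent TGF-beta. It passed the test in none of the 3 comparisons. In CD206+ KCs its values were 9.07, 8.75 and 8.51 against 8.94, 8.83 and 8.67. In CD206high KCs they were 9.87, 10.03 and 10.54 against 10.52, 10.38 and 10.56, and Id3f/f controls had 10.19, 9.92 and 10.08 against 10.15 and 10.12 with the cre. The groups overlapped in each table. Their log2 differences were 0.04 (-0.03 after median centring), 0.34 and 0.07, with adjusted p of 0.962, 0.399 and 0.738. Over all settings they ran from -0.10 to 0.18, from 0.18 to 0.53 and from -0.0012 to 0.13, and the highest in CD206high KCs came without tumour-free replicate 3 (adjusted p = 0.0566).

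Icam1 encodes ICAM-1, the counter-receptor of LFA-1 and Mac-1, which inflammatory signals induce on many cells. In CD206+ KCs it was at 14.27, 13.66 and 14.16 without and 13.29, 13.10 and 13.21 with tumour. CD206high KCs had it at 13.77, 13.28 and 13.77 against 13.03, 12.84 and 13.03. In each subset all 3 tumour-bearing samples lay below all 3 tumour-free ones, and replicate 2 was the lowest of each group. The log2 differences were -0.83 (SE 0.19, 95% interval -1.27 to -0.39, adjusted p = 0.0566) and -0.64 (SE 0.19, 95% interval -1.08 to -0.20, adjusted p = 0.0985), so neither passed the test. The summed endothelial level was lower in the same tumour-bearing CD206high samples. In CD206+ KCs it was 15.05, 14.13 and 14.80 without and 13.73, 13.74 and 14.18 with tumour, with overlap. Its part in the Icam1 values was not tested.

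Other settings moved Icam1 across the threshold. In CD206+ KCs its adjusted p was 0.0120 with same-numbered replicates as a block, 0.0178 after quantile normalization and 0.00247 without tumour-free replicate 2, in a range of 0.00247 to 0.198. In CD206high KCs it was 0.0100 without tumour-free replicate 2, with a log2 difference of -0.80, in a range up to 0.388. The direction was downward in all 13 settings of each subset. With Id3 deletion Icam1 was at 12.52, 12.66 and 12.63 in controls and 12.77 and 12.79 with the cre. The cre samples lay above the controls, with a log2 difference of 0.18 (95% interval -0.01 to 0.36, from 0.13 to 0.23 over all settings) and an adjusted p of 0.235.

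Vcam1 encodes VCAM-1, which binds VLA-4 and the alpha9 integrin. It was at 14.30, 13.86 and 14.64 against 14.39, 13.95 and 13.83 in CD206+ KCs. In CD206high KCs, Vcam1 was at 14.85, 14.46 and 16.15 against 15.29, 15.24 and 14.85. Tumour-free replicate 3 held by far the highest of these values, and the groups overlapped in both subsets. Log2 differences were -0.21 (95% interval -0.76 to 0.33) and -0.03 (-1.01 to 0.96). Removing tumour-free replicate 2 gave -0.42 in CD206+ and -0.37 in CD206high KCs, and removing replicate 3 gave -0.02 and 0.47. Quantile normalization gave 0.15 in CD206high KCs. In the Id3 table Vcam1 was at 14.81, 14.96 and 14.95 against 15.01 and 14.97, close together without overlap, a log2 difference of 0.08 (95% interval -0.09 to 0.25). After quantile normalization it was 0.28 (adjusted p = 0.0575), and without Id3f/f replicate 1 it was 0.03. Its level was the highest of the 10 genes per kilobase in that table.

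Of 34 genes of integrin activation and of the adhesome, the protein complex at the inner face of integrins, 32 were tested in the Id3 table, 4 rose and 1 fell, with a median log2 difference of 0.08. Of all genes tested there, 6.44% were called. Groups did not overlap for 15 of the 32, against 41.9% of all genes, so such separation is common in this comparison. Tln1 encodes talin, which binds beta tails and switches integrins on. It was at 12.33, 12.34 and 12.39 in controls and 12.73 and 12.73 with the cre, a log2 difference of 0.38 (adjusted p = 0.0249). Fermt3, for the leukocyte kindlin that works with talin on beta2 integrins, was at 13.03, 13.20 and 12.98 against 13.51 and 13.50, a difference of 0.44 (adjusted p = 0.0235). Talin and this kindlin rose in both cre samples, above all controls.

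The Src-family kinases Lyn and Fyn, which signal downstream of integrins, rose as well. Lyn was at 13.68, 13.73 and 13.67 against 14.07 and 14.03, a log2 difference of 0.35 (adjusted p = 0.0259). Fyn was at 10.90, 10.76 and 10.69 against 11.38 and 11.34, a difference of 0.58 (adjusted p = 0.0115). Cytip, for a protein that restrains LFA-1 adhesion by holding cytohesin, fell from 9.66, 9.69 and 9.63 to 8.84 and 8.90, a difference of -0.79 (adjusted p = 0.00235). Its log2 difference was the largest in size of the list. Rap1b, for a small GTPase that activates integrins, was the most abundant of the list per kilobase, with a difference of 0.13 that did not pass the test. All 5 calls were lost without either cre sample, with adjusted p of 0.309 and 0.241 for Tln1, 0.294 and 0.225 for Fermt3, 0.355 and 0.236 for Lyn, 0.206 and 0.157 for Fyn, and 0.0869 and 0.0740 for Cytip. Calls of Tln1 and Lyn were also lost without Id3f/f replicate 1 or 2, and that of Fermt3 without Id3f/f replicate 1.

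**Figure D3:**
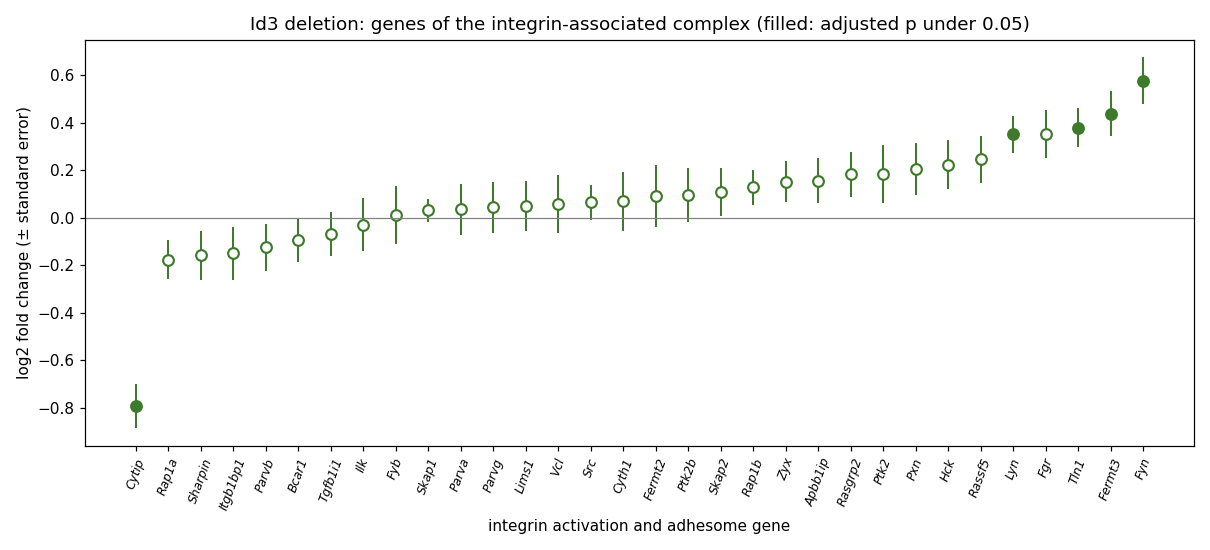
Log2 difference (Clec4fCreId3f/f minus Id3f/f) with its standard error for each tested gene of integrin activation and the adhesome, ordered by size. Filled points have an adjusted p under 0.05, and they run from Cytip at -0.79 to Fyn at 0.58.

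With tumour, 1 of the 34 adhesome genes rose in each subset and 0 fell, with medians of -0.10 and 0.03. It was Fermt1, the kindlin of epithelia, in both. Of all genes tested, 3.54% were called in CD206+ and 7.23% in CD206high KCs. In CD206+ KCs, Fermt1 was at 4.44, 4.39 and 4.56 without and 6.61, 5.74 and 6.26 with tumour, a log2 difference of 1.74 (adjusted p = 0.00768). In CD206high KCs it was at 4.07, 4.44 and 4.22 against 9.29, 9.34 and 9.12, a difference of 5.01. Every tumour-bearing sample lay above every tumour-free one, as for the epithelial list. The most abundant per kilobase were Fermt3 in CD206+ and Fyb, for an adaptor of integrin activation in leukocytes, in CD206high KCs, with log2 differences of -0.22 and -0.39 that did not pass the test.

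Of 18 other integrin subunits, 15 were tested in CD206+ KCs and 3 rose, with a median of 0.42. In CD206high KCs 16 were tested and 5 rose, with a median of 1.01, and 0 fell in either subset. Of all genes tested, 2.55% rose in CD206+ and 5.21% in CD206high KCs. Itgax, which encodes the alpha chain of a further beta2 integrin (CD11c) carried by dendritic cells and some macrophages, rose in each. Its values were 10.15, 9.85 and 10.63 against 11.30, 11.47 and 11.19 in CD206+ KCs, and 8.76, 9.26 and 9.30 against 10.69, 10.97 and 10.47 in CD206high KCs. No sample overlapped. The log2 differences were 1.10 (SE 0.22, adjusted p = 0.0370) and 1.60 (SE 0.23, adjusted p = 0.00588). The second held in all 13 other settings. The first was lost in 7 of 13, among them without tumour-free replicate 1 (adjusted p = 0.114) or tumour-bearing replicate 1 (0.140), 2 (0.140) or 3 (0.111).

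Itga3 and Itgb4, for chains of laminin receptors of epithelia, rose in both subsets. Itga3 was at 4.65, 4.60 and 5.35 against 7.10, 6.70 and 6.03 in CD206+ KCs, and at 5.76, 5.94 and 5.07 against 8.83, 8.66 and 8.98 in CD206high KCs. Itgb4, the partner of the alpha6 chain in hemidesmosomes, was at 5.82, 5.43 and 5.78 against 6.97, 6.63 and 7.44, and at 5.83, 6.14 and 5.86 against 8.49, 8.35 and 8.96. The groups did not overlap in any of these. The log2 differences were 1.74 (adjusted p = 0.0290) and 3.23 for Itga3, and 1.34 (adjusted p = 0.0390) and 2.66 for Itgb4. The CD206+ calls rested on single libraries, since that of Itga3 was lost without tumour-free replicate 1 (adjusted p = 0.110) or tumour-bearing replicate 1 (0.104) or 2 (0.103), and with no filter (0.0514). That of Itgb4 was lost with no filter (0.0624), after quantile normalization (0.0596) or median centring (0.0576), and without any 1 library, with adjusted p of 0.0978, 0.0542 and 0.106 without tumour-free replicates 1 to 3 and of 0.126, 0.0539 and 0.123 without tumour-bearing ones.

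Itga2 and Itgb6 rose in CD206high KCs. Itga2, for a collagen receptor chain, was at 4.95, 5.18 and 6.62 against 8.23, 8.36 and 7.79, a log2 difference of 2.54 (adjusted p = 0.0158) that was lost without tumour-free replicate 1 (0.0685) or tumour-bearing replicate 1 (0.0823), 2 (0.0902) or 3 (0.0505). Itgb6, an alphaV partner of epithelia, was at 3.39, 3.40 and 3.43 against 7.41, 7.02 and 6.78, a difference of 3.66 (adjusted p = 0.000108). These values are low in tumour-free samples, where the transformation understates differences. The epithelial list was higher in the same samples, and its part in these calls was not tested. The most abundant subunits per kilobase were Itgb5 in CD206+ and Itgb7 in CD206high KCs, and neither passed the test. Itgb7 was highest in replicate 2 of both CD206+ groups and of the tumour-free CD206high group, at 11.53, 11.58 and 11.45. With Id3 deletion, 9 of the 18 were tested and limma called 0, with a median of 0.02, Itgb5 as the most abundant and Itgax at 5.87, 5.92 and 6.08 against 5.83 and 5.89. Itga11, Itgad and Itgb6 were listed at 0 in all of its samples, as was Itgb8 in the CD206+ table.

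Among 30 further integrin ligands and counter-receptors, Spp1, which encodes osteopontin, a secreted ligand of alphaV, alpha4 and alpha9 integrins, rose with tumour in both subsets. It was at 10.17, 8.77 and 9.63 without and 13.61, 13.70 and 13.13 with tumour in CD206+ KCs. In CD206high KCs, Spp1 was at 10.85, 10.92 and 10.77 against 14.40, 15.43 and 14.57. Every tumour-bearing sample lay above every tumour-free one, and the log2 differences were 3.95 (SE 0.34, adjusted p = 0.000594) and 3.96 (SE 0.27, adjusted p = 0.000190). In CD206high KCs it was the most abundant of the list per kilobase. The epithelial, monocyte and neutrophil lists were higher in the same tumour-bearing samples, and their part in the Spp1 values was not tested.

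Npnt, for nephronectin, a basement membrane ligand, was at 4.29, 4.32 and 4.30 against 5.69, 5.95 and 5.68 in CD206+ KCs, a log2 difference of 1.47 (adjusted p = 0.00310). In CD206high KCs, Npnt was at 4.09, 3.99 and 4.03 against 9.15, 9.01 and 9.34, a difference of 5.14. Both are calls upward with no overlap. The epithelial list was higher in the same samples, and its part in the Npnt values was not tested. Vtn, for the plasma protein vitronectin, which hepatocytes make, fell in CD206+ KCs from 11.12, 10.61 and 11.52 to 9.55, 9.28 and 9.93, a difference of -1.49 (adjusted p = 0.0233). That call was lost without tumour-free replicate 1 (0.0846) or 3 (0.0844) or tumour-bearing replicate 1 (0.107) or 2 (0.0931).

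Icam2, for the LFA-1 ligand that endothelium carries at all times, fell in CD206high KCs. It was at 12.84, 12.997 and 12.74 without and 11.63, 11.88 and 11.81 with tumour, and the groups did not overlap. The log2 difference was -1.09 (SE 0.15, adjusted p = 0.00597), and the call was lost without tumour-bearing replicate 1 (adjusted p = 0.0613). The summed endothelial level was lower in the same samples. In CD206+ KCs, Icam2 was at 12.11, 11.13 and 11.47 against 11.54, 10.94 and 11.75, with overlap, and was the most abundant of the list per kilobase. In all, 2 ligands rose and 1 fell of 24 tested in CD206+ KCs (median 0.26), and 2 rose and 1 fell of 27 in CD206high KCs (median 0.28). Called shares over all genes tested were 3.54% and 7.23%. With Id3 deletion limma called 0 of 23, with a median of -0.04, and Cd47, for a partner of integrins and ligand of SIRP-alpha, was the most abundant.

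Of 28 selectins and other adhesion molecules in the tables, 3 rose and 1 fell of 25 tested in CD206+ KCs (median -0.03), and 4 rose and 0 fell of 28 in CD206high KCs (median -0.12). Those that rose were Cdh1, for E-cadherin (log2 differences 2.58 and 3.97), Epcam (1.43 and 5.08) and Alcam (1.49 and 2.74) in both subsets, and Ncam1 (1.60) in CD206high KCs. Called shares over all genes tested were 3.54% in CD206+ and 7.23% in CD206high KCs. Ncam1 passed the filter through the tumour-bearing samples alone, so it has no value when 1 of them is left out or with the stricter filter. Cdh1 and Epcam also belong to the epithelial list. In CD206+ KCs the call of Epcam was lost without tumour-free replicate 1 (adjusted p = 0.0867) or 3 (0.0859) or tumour-bearing replicate 2 (0.0503) or 3 (0.0543), and that of Alcam without tumour-free replicate 3 (0.0506). Siglec1, the sialic acid receptor of resident macrophages (sialoadhesin), fell in CD206+ KCs from 15.26, 14.73 and 14.60 to 13.78, 13.87 and 14.11. Its difference of -0.94 (adjusted p = 0.0481) was lost without any 1 library other than tumour-free replicate 2, with adjusted p up to 0.203, and also after median centring (0.0661), with no filter (0.0736), with no trend (0.0786) and with the robust fit (0.0501). Adgre5 (CD97) was the most abundant per kilobase in both subsets and did not pass the test.

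With Id3 deletion 2 of 24 tested genes of that list rose and 0 fell, with a median of 0.03. Of all genes tested, 6.44% were called. Groups did not overlap for 6 of the 24, against 41.9% of all genes. Adgre5, an adhesion receptor that binds integrins among other partners, was at 13.82, 13.92 and 13.77 in controls and 14.34 and 14.30 with the cre, a log2 difference of 0.49 (adjusted p = 0.0106). Pecam1, for the adhesion molecule PECAM-1 of endothelium and leukocytes, was at 11.12, 11.12 and 11.42 against 11.82 and 11.77, a difference of 0.58 (adjusted p = 0.0180). Both cre samples lay above all controls for both genes. Without cre replicate 1 or 2 the adjusted p was 0.239 and 0.171 for Adgre5 and 0.244 and 0.187 for Pecam1, which was also lost without Id3f/f replicate 1 (0.0752) or 2 (0.0608). Cd48, a ligand of the receptor CD244, was the most abundant of the list per kilobase.

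The Id3 comparison was checked on its target. Id3 was at 12.58, 12.46 and 12.82 in controls and 9.83 and 9.82 with the cre, and fell by 2.80 on the log2 scale (adjusted p = 1.4e-06). Clec4f, which carries the cre, fell from 17.59, 17.62 and 17.71 to 16.13 and 16.11, a log2 difference of -1.52 (adjusted p = 1.8e-06). Of the 15 KC markers 3 rose (Adgre1, Slc40a1 and Cd5l, by 0.79, 0.42 and 0.25) and 6 fell (Clec4f, Cd68, Folr2, C1qa, C1qb and C1qc), with a median of -0.08. The calls of Id3 and Clec4f held in all 12 other settings, and the other 8 marker calls were lost without either Clec4fCreId3f/f sample, with adjusted p from 0.0759 to 0.442. After quantile normalization C1qb was at a log2 difference of 0 (adjusted p = 1) and C1qa at -0.16 (0.173). Without Id3f/f replicate 1 the calls of C1qc (0.0609), Cd5l (0.0912) and Folr2 (0.0696) were lost, as was that of Cd5l without Id3f/f replicate 2 (0.0645). Without the mean-variance trend Cd5l (0.0575) and Folr2 (0.0561) were not called.

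Sex-linked genes split the Id3 table by genotype. Xist, expressed from the inactive X of females, was at 6.38, 6.33 and 6.36 in controls and 9.84 and 9.76 with the cre. Ddx3y, on the Y chromosome, was at 9.46, 9.43 and 9.43 against 6.9996 and 7.0064, and Eif2s3y at 8.44, 8.77 and 9.12 against 6.95 and 6.95. All 5 sex-linked genes passed the test, Xist higher and Ddx3y, Eif2s3y (the most abundant per kilobase), Uty and Kdm5d lower (Uty and Kdm5d were not called without either cre sample, nor Kdm5d without Id3f/f replicate 2), so sex and genotype cannot be told apart for any gene of this comparison. With tumour, 4 were tested and limma called 0 of 4 in each subset, with medians of 0.90 and -0.14. All 4 lay higher with tumour in CD206+ KCs, 3 of them without overlap of the groups. Their summed level there was 9.53, 9.15 and 9.70 without and 10.61, 10.12 and 10.16 with tumour. In CD206high KCs 1 lay higher and 3 lower, and the groups overlapped for each. The part of this in other genes was not tested. Xist was listed at 0 in the CD206+ table, and in the CD206high table it was under the filter.

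Marker lists of other cells were counted with Id3 deletion too. Of 8 monocyte genes tested 2 fell (Plac8 and Ms4a4c, by -0.95 and -0.86), with a median of -0.04 and summed levels of 13.83, 13.69 and 13.97 against 12.97 and 13.06. In the neutrophil list 1 of 8 fell (Mmp9, -0.49, the most abundant per kilobase), in the T and NK cell list 1 of 10 (Klrk1, -0.47) and in the platelet list 1 of 5 (Pf4, -0.73). Their medians were -0.02, -0.02 and -0.04, and the summed platelet level was 9.53, 9.41 and 9.48 in controls and 8.83 and 8.96 with the cre. Summed levels in controls and cre samples were 10.11, 9.98 and 10.05 against 9.74 and 9.64 for the neutrophil list and 11.54, 11.46 and 11.52 against 11.15 and 11.18 for the T and NK cell list. They were 12.54, 12.59 and 12.59 against 12.36 and 12.24 for the stellate list and 20.70, 20.67 and 20.67 against 20.55 and 20.52 for the KC list. In each of these lists, and in the monocyte and platelet lists, both cre samples lay below all controls. Of 12 endothelial genes 1 rose (Pecam1) and 2 fell (Clec4g and Dnase1l3, -0.80 and -0.42), and of 12 hepatocyte genes 1 rose (Pck1, 0.74, with Alb the most abundant), with medians of 0.02 and 0.20. In the dendritic cell, B cell, stellate and epithelial lists limma called 0 of 8, 4, 12 and 6 tested, with medians of -0.02, 0.05, 0.03 and -0.03, and Batf3, Cd79b, Ecm1 and Krt18 were the most abundant of each per kilobase. Summed levels of the epithelial list were 8.67, 8.78 and 8.74 in controls and 8.65 and 8.79 with the cre. The part of other cells in the integrin values was not tested. Without Clec4fCreId3f/f replicate 1 all calls of this paragraph were lost, and without replicate 2 all but that of Plac8. Those of Mmp9, Dnase1l3, Pck1 and Pecam1 were also lost without Id3f/f replicate 1 (adjusted p = 0.0869, 0.0874, 0.0765 and 0.0752) or 2 (0.0516, 0.0668, 0.0585 and 0.0608), that of Klrk1 without Id3f/f replicate 1 (0.0638) and that of Clec4g with no trend (0.0505).

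In the genome (build GRCm38, GENCODE), Itgal lies at chr7:127296260-127335138 and Itgam at chr7:128062640-128118491, both on the plus strand, and the 2 other alpha chains of beta2 integrins follow. Itgax starts 11055 bases after the end of Itgam, and Itgad 3718 bases after that of Itgax. The gap between Itgal and Itgam is 727501 bases. Itgb2 is at chr10:77530252-77565708, Itgb1 at chr8:128685654-128733200, Icam1 at chr9:21015985-21028817 and Itga9 at chr9:118606690-118901003. On chromosome 2 lie Itga6 (chr2:71745616-71858416), Itga4 (chr2:79255426-79333123) and Itgav (chr2:83724397-83806916), and Vcam1 is at chr3:116109949-116129688 on the minus strand. The amplification used does not mark the strand of a read, so reads in exons shared with another gene cannot be told apart. Itgam shares 3450 exon bases with Gm49368 on its own strand, Itga4 shares 1124 with Cerkl, Itgav 634 with Gm13684, Icam1 511 with Gm47079 and Vcam1 61 with Gm43109, all 4 on the opposite strand.

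RefSeq (build GRCm38.p6) held promoters of 6 of the 10 genes, and the 250 bases before the start of 2 are shown. Itgb1 is the gene called with Id3 deletion that has an entry, and Icam1 lay lower in all tumour-bearing samples of both subsets. Capitals mark matches, on either strand, to CANNTG, the E-box that E proteins bind, to CCGGAA, the core that Ets factors bind, and to GGAAATTCC, a form bound by NF-kappaB that was chosen after the Icam1 sequence was seen. Of 32841 promoters of this length, 66.2% hold CANNTG, 12% hold CCGGAA and 0.286% hold GGAAATTCC. Itgb1 (chr8:128685404-128685653, plus strand) has 0 matches to any of them. Icam1 (chr9:21015690-21015939, plus strand) has 2 matches to CANNTG, 3 to CCGGAA and 1 to GGAAATTCC. A match describes the letters only.
Itgb1: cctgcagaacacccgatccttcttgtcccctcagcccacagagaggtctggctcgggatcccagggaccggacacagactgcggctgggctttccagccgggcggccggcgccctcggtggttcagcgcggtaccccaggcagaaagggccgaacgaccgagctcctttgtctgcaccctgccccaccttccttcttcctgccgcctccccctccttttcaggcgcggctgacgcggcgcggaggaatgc
Icam1: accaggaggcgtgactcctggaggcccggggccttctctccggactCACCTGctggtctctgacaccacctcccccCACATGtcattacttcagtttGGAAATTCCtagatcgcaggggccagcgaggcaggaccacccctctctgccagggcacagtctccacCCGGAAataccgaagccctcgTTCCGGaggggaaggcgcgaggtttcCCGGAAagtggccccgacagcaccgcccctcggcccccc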

How the data were processed

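Liver KCs were profiled by RNA sequencing in 17 samples, grouped by subset, tumour and genotype as the labels give them, with 0 table columns unmapped. By the submitters' processing notes the authors amplified RNA with SMART-Seq, aligned reads to mm10 with STAR 2.7.10a, counted them with HTSeq and used DESeq2. The deposited columns are headed TPM and the tables are named as counts, but what is deposited behaves as log2 values, most like a regularized log2 transformation made separately for each table. A value of exactly 0 in all samples is called listed at 0. Depth is unknown from the values. Differences were tested as planned with limma 3.58.1 in R 4.3.3 (mean-variance trend, empirical Bayes, two-sided, Benjamini-Hochberg over all genes tested). A run of limma on simulated data is not reported here, and no statement rests on it. Genes needed a value of at least 10 counts on the log2 scale in 3 samples, 2 in the Id3 table. Alternatives were no filter, a mean of at least 50 counts, a replicate block, no trend, a robust fit, quantile normalization, median centring and leaving out each sample. The block takes same-numbered samples as pairs. In the CD206+ groups their deviations from the group means correlated across genes at 0.35, 0.56 and 0.15 for numbers 1 to 3, but tumour-free 1 also correlated with tumour-bearing 3 (0.296) and tumour-free 3 with tumour-bearing 1 (0.158). Named are the 10 genes, Id3, Clec4f and, of each of 16 lists, the most abundant gene and those past the test (up to 8 in each direction). Outside that rule Mrc1, genes under the filter or listed at 0, and genes that lie beside or overlap the 10 were added after their values were seen, and some genes that meet the rule are not reported here. The members and lists were chosen with earlier results of these data known. Figures were drawn with Python 3.11.15 and matplotlib 3.10.9.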

Additional observations from a re-analysis of the deposited data

How the results depend on the processing

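The members called were 0 with tumour in each subset and 3 with Id3 deletion. In CD206+ KCs, where correlations of same-numbered samples are positive but unlike numbers 1 and 3 correlate too, the replicate block gave 4 members and 1026 genes in place of 469, and quantile normalization gave 2 members. Leaving out 1 sample gave 0 to 2 members and 231 to 1032 genes there, 0 to 4 members and 444 to 3633 genes in CD206high KCs (1053 with all samples), and 0 to 4 members and 17 to 1850 genes in the Id3 table (827 with all). The stricter filter gave 600 genes in CD206high KCs, and no filter gave 477 in the Id3 table. The replicate block gave 2089 genes and 6 members in the Id3 table, where same-numbered samples do not correlate positively (correlations of -0.073 and -0.1, and in CD206high KCs of -0.048, -0.132 and -0.051). Directions reversed only for members that were not called. In CD206+ KCs, Itgav was at -0.0326 after median centring, and leaving out 1 sample gave log2 differences from -0.3059 to 0.10 for Itga4, from -0.10 to 0.1843 for Itgav and from -0.16 to 0.6075 for Itgb1. In CD206high KCs, quantile normalization gave 0.0246 for Itgal and 0.15 for Vcam1, and median centring gave -0.10 for Itga4 and -0.0359 for Itgb2. Leaving out 1 sample gave from -0.16 to 0.26 for Itga4, -0.032 to 0.7016 for Itga6, -0.4033 to 0.13 for Itgal, -0.0565 to 0.2222 for Itgb2 and -0.374 to 0.47 for Vcam1. In the Id3 table, Itgav was at -0.0012 without Id3f/f replicate 2. Of all other single-gene values, 1616 kept direction and side of the threshold, 260 lost the call and 18 gained it. Fewer samples or genes tested enter by construction, and otherwise the cause was not tested. Fits with 1 Clec4fCreId3f/f sample assume that it varies like the controls. Epcam, Fermt1 and Npnt in CD206+ KCs and Itgb6, Ly6g and Ncam1 in CD206high KCs have no value where they failed a filter. Groups of 3 or 2 samples limit the precision, and low values are drawn together by the transformation.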
